A study of Malus domestica with 6 samples.

Results

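The subject of this report is a set of 78 genes with abundant transcripts and a narrow spread between libraries in the pulp of the apple cultivars Jonagold and Granny Smith. They were chosen by their deposited FPKM values, out of 46558 genes in the table. A gene entered the set when it measured at least 150 FPKM in all 6 libraries and its highest value was at most 1.5 times its lowest. The same 6 values therefore chose the genes and describe them, so no test between the cultivars was made on the set. In all, 301 genes reached 150 FPKM in every library, and 78 of these, or 25.9%, were also within the ratio of 1.5.

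Genes of this kind are of practical use as reference genes. In quantitative PCR the signal of a target gene is divided by that of a reference gene, so any difference of the reference between samples is carried into the target. A good reference gene has a level near that of its targets and a spread that is small beside the differences to be measured. Genes for cytoskeleton proteins and for translation factors are common choices in plants. The study used MdActin and MdEF-1α for its own quantitative PCR. The sources used here give no identifiers for these, so neither was looked up.

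The study compared Jonagold, with red skin, and Granny Smith, with green skin. Each cultivar had 3 libraries, and each library was made from the pooled pulp of several unbagged, fully ripe fruits. Trees of both cultivars stood on the same rootstock at one station. The deposited table gives identifiers of the GDDH13 genome, which name the chromosome, with no gene names. The paper names 97 of these genes, and 0 of the 78 are among them, so they are described here by identifier. Their function was not analysed here, and the pulp label was not checked against tissue markers.

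FPKM is a fragment count scaled to gene length and to library size. The deposited values proved to be whole reads divided by a whole gene length and by 1 divisor per library, for all 78 genes and for 34259 of the 34279 genes above 0. The recovered reads summed to 14925509 to 17426834 per Jonagold library and to 17730333 to 17884255 per Granny Smith library. No 2 libraries held the same values, and Pearson's r of log2(FPKM + 1) across genes was 0.967 to 0.986 within Jonagold and 0.975 to 0.983 within Granny Smith. The divisors did not follow the sums of reads. They were 13647744 to 15476854 fragments in Jonagold and 19907455 to 21138338 fragments in Granny Smith. Divisor over reads was thus 0.888 to 0.914 in Jonagold and 1.12 to 1.19 in Granny Smith. Scaling factors by the median of ratios, computed on the deposited values, lay between 0.999 and 1.00 in all libraries. The deposited scale is therefore one on which the middle gene is level between libraries. The FPKM totals were not level, with 755644 to 800812 in Jonagold and 554856 to 599617 in Granny Smith. A narrow spread of a gene in this table means that it moved little relative to the middle gene.

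The 78 genes covered a wide range of levels. Their mean over the 6 libraries ran from 167 to 4231 FPKM, with a median of 256 FPKM. The mean was below 200 FPKM in 17 genes, from 200 to under 300 FPKM in 28, from 300 to under 1000 FPKM in 30 and at least 1000 FPKM in 3. Across the 78 genes, Spearman's rho between mean FPKM and the ratio of highest to lowest was -0.07, as a description over genes that share the same 6 libraries and were limited by the rule in both measures.

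MD02G1064800 on chromosome 2 was by far the most abundant gene of the set. It measured 4684, 4872 and 4763 FPKM in Jonagold, against 3624, 3838 and 3603 FPKM in Granny Smith. The cultivars did not overlap, and the mean of Jonagold was 1.29 times that of Granny Smith. The gene held 155201 to 192184 recovered reads per library. It made up at least 14.8% of the summed FPKM of the 78 genes in each Jonagold library and at most 12.9% in each Granny Smith library. As a share of the whole library its levels were close, with 0.617% ± 0.0118 of all FPKM in Jonagold and 0.632% ± 0.0233 in Granny Smith (SD, n = 3 libraries each).

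The next 4 genes by mean level showed both directions of difference. MD05G1341400 on chromosome 5 measured 1293, 1321 and 1205 FPKM in Jonagold and 1376, 1087 and 1060 FPKM in Granny Smith. Its highest value was in Granny Smith replicate 1, above all Jonagold libraries, so the cultivars overlapped. MD07G1215400 on chromosome 7 measured 836, 997 and 845 FPKM in Jonagold and 1128, 1230 and 1059 FPKM in Granny Smith. All of its Jonagold libraries were below all of its Granny Smith libraries. MD13G1111500 on chromosome 13 measured 1032, 869 and 788 FPKM in Jonagold and 902, 900 and 931 FPKM in Granny Smith. The Granny Smith values of this gene lay inside the Jonagold range. MD10G1314900 on chromosome 10 measured 608, 655 and 592 FPKM in Jonagold and 784, 816 and 753 FPKM in Granny Smith, again without overlap.

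**Figure D1:**
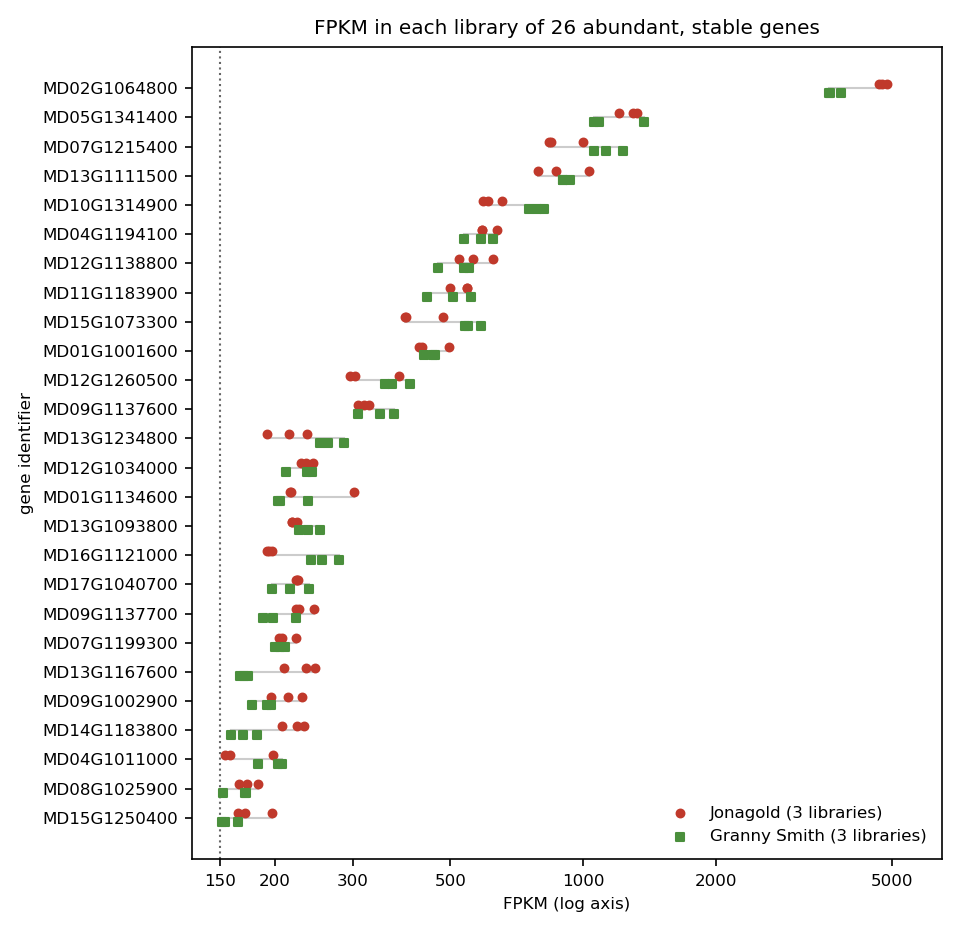
FPKM (log axis) of the 26 genes named by a fixed rule, 1 row per gene ordered by mean FPKM, with red circles for the 3 Jonagold libraries, green squares for the 3 Granny Smith libraries and a dotted line at the minimum of 150 FPKM. The 6 points of each gene span a factor of at most 1.5, while the genes range from about 167 to 4231 FPKM in their mean, and MD02G1064800 stands above all others.

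Summed over the 78 genes, the deposited FPKM was nearly level. The sum was 31745, 31266 and 29970 FPKM in Jonagold replicates 1, 2 and 3, and 30163, 30884 and 27962 FPKM in Granny Smith replicates 1, 2 and 3. These sums overlapped between the cultivars, which the choice of genes favours. The share of the library total did not overlap. Because the rule held the sums near level, the share of FPKM largely follows the unequal FPKM totals. Nothing is read from it about the 78 genes themselves. The 78 genes took 4.14%, 3.90% and 3.97% of all FPKM in Jonagold, against 5.04%, 5.15% and 5.04% in Granny Smith. Their share of recovered reads was 4.37%, 4.25% and 4.25% in Jonagold and 5.08%, 5.33% and 5.06% in Granny Smith.

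The difference in share went together with what other genes took of the total. The 100 most abundant genes outside the set held 35.2% to 41.0% of all FPKM in Jonagold and 24.8% to 27.4% in Granny Smith. With these 100 genes left out of the total, the 78 genes took 6.52% ± 0.110 in Jonagold and 6.88% ± 0.196 in Granny Smith (SD, n = 3 libraries each). The shares were then closer, although each Jonagold library was still below each Granny Smith library. The part of these abundant genes in the difference was not tested further.

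**Figure D2:**
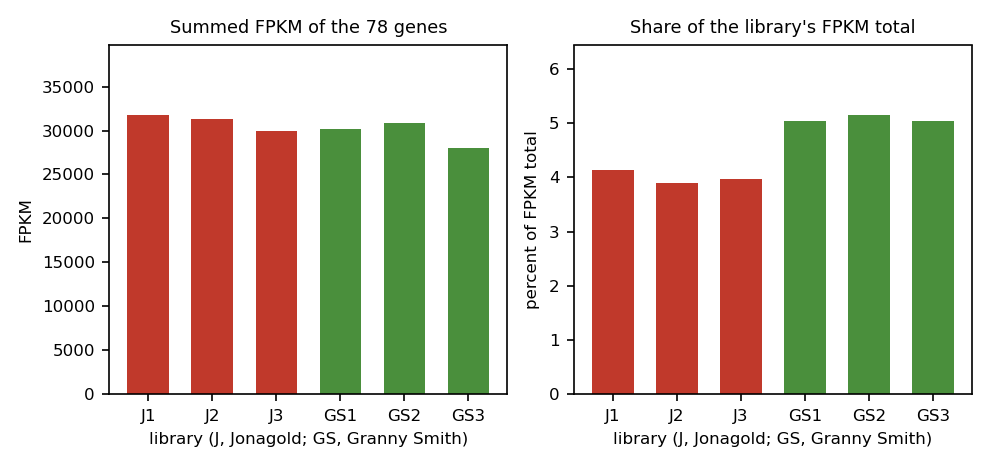
Summed FPKM of the 78 genes (left, FPKM) and the same sum as a share of each library's FPKM total (right, percent), 1 bar per library, Jonagold in red and Granny Smith in green. The sums lie between 27962 and 31745 FPKM and overlap, whereas the shares are 3.90% to 4.14% in Jonagold and 5.04% to 5.15% in Granny Smith.

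The small differences that remained between the cultivars ran in both directions. In deposited FPKM, the ratio of the Jonagold mean to the Granny Smith mean had a median of 1.04 over the 78 genes and a range from 0.748 to 1.36. For comparison, the median was 1.00 over 20839 genes that averaged 1 FPKM or more and were above 0 in Granny Smith. Jonagold had the higher mean in 47 genes and the lower mean in 31, and on the upper quartile scale the split turned to 36 higher and 42 lower. The cultivars overlapped in 54 genes. All Jonagold libraries were above all Granny Smith libraries in 13 of the 78 genes, beside 30.4% of the 20993 genes that averaged 1 FPKM or more. All Jonagold libraries were below all Granny Smith libraries in 11, beside 29.2% of the 20993 genes. The limit on the ratio bears on these counts, so nothing is read from them.

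The extremes of these ratios were as follows. MD13G1167600 on chromosome 13 had the highest ratio, 1.36, with 247, 235 and 210 FPKM in Jonagold and 167, 174 and 170 FPKM in Granny Smith. MD14G1183800 on chromosome 14 followed, with 233, 208 and 225 FPKM in Jonagold and 169, 182 and 159 FPKM in Granny Smith. These were followed by MD02G1064800. At the other end, MD16G1121000 on chromosome 16 had the lowest ratio, 0.748, with 197, 194 and 192 FPKM in Jonagold and 256, 280 and 242 FPKM in Granny Smith. MD15G1073300 on chromosome 15 had a ratio of 0.760, with 395, 480 and 397 FPKM in Jonagold and 587, 540 and 547 FPKM in Granny Smith. MD07G1215400 came next with 0.784. The cultivars overlapped in 0 of these 6 genes in deposited FPKM.

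The direction of such differences depended on the scale. When the FPKM totals of all libraries were made equal, the ratio of Jonagold to Granny Smith had a median of 0.785 over the 78 genes, beside 0.755 over the same 20839 genes. Jonagold then had the lower mean in 77 genes and the higher mean in 1, MD13G1167600 at 1.02. On this scale all Jonagold libraries were below all Granny Smith libraries in 52 of the 78 genes, beside 49.7% of the 20993 genes, and above them in 0, beside 17.5%. Of the 78 genes, 40 stayed within the ratio of 1.5, and 36 also stayed above 150 FPKM in all libraries. On this scale 98 genes met both criteria. The 36 shared genes were 46.2% of the 78 and 36.7% of the 98.

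MD02G1064800 was the most even of the 78 genes on that scale, with a ratio of highest to lowest of 1.07, against 1.35 in deposited FPKM. The order of the genes by spread was hardly shared between the scales, with a Spearman's rho of 0.15 over the 78 genes. Which genes are called even therefore depended on whether the middle gene or the library total was taken as level. The files do not tell which of these scales follows the RNA content of the pulp.

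**Figure D3:**
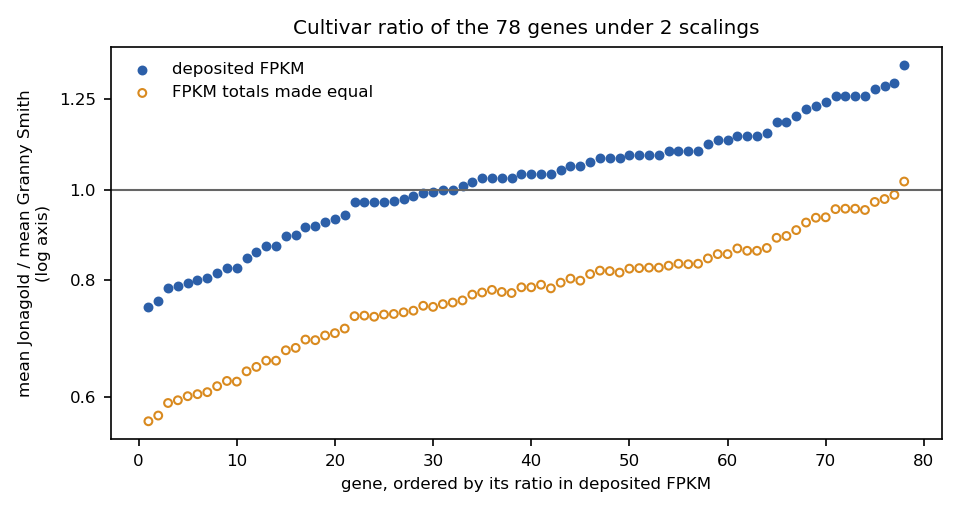
Mean of Jonagold over mean of Granny Smith (log axis) for the 78 genes, ordered by this ratio in deposited FPKM, as filled blue points for deposited FPKM and open orange points after the FPKM totals were made equal. The filled points lie on both sides of 1, from 0.748 to 1.36, and the open points lie below 1 in 77 genes.

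The spread between libraries was larger than counting error in all 78 genes. The coefficient of variation (CV) over the 6 libraries ran from 3.80% to 17.6%, with a median of 11.7%. The recovered reads, 586 to 192184 per gene and library, imply a CV from counting alone of 0.240% to 3.24%. The measured CV was at least 2.39 times the CV from counting, with a median of 8.96 times. Within a cultivar the ratio of highest to lowest had a median of 1.17 in Jonagold and 1.16 in Granny Smith.

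In deposited FPKM, the extremes of this spread fell more often in some libraries than in others. The highest of the 6 values was in Jonagold replicate 1 for 32 of the 78 genes, and the lowest was in Granny Smith replicate 3 for 31. The same counts over all genes were not made, so nothing is read from them about the 78. On this scale the geometric mean of the 78 genes was taken relative to that of the Granny Smith libraries. It was 1.06, 1.02 and 0.986 in Jonagold replicates 1, 2 and 3, and 1.02, 1.04 and 0.945 in Granny Smith replicates 1, 2 and 3. The order changed on the upper quartile scale, with the highest value, 1.08, in Granny Smith replicate 2. The lowest there was 0.953, in Jonagold replicate 3. With Jonagold replicate 1 left out of the rule, 110 genes met it, the most for any library left out.

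The 5 genes with the narrowest spread in deposited FPKM are the first group of candidates. MD07G1199300 on chromosome 7 measured 223, 204 and 208 FPKM in Jonagold and 206, 211 and 200 FPKM in Granny Smith, a ratio of highest to lowest of 1.11. MD12G1034000 on chromosome 12 measured 235, 244 and 229 FPKM in Jonagold and 236, 243 and 212 FPKM in Granny Smith, a ratio of 1.15. In both genes the cultivars overlapped on this scale, and the Jonagold mean was 1.03 times the Granny Smith mean. MD13G1093800 on chromosome 13 measured 219, 225 and 219 FPKM in Jonagold and 238, 253 and 227 FPKM in Granny Smith, a ratio of 1.16. Here the cultivars did not overlap, although their nearest values were 225 FPKM in Jonagold and 227 FPKM in Granny Smith. MD01G1001600 on chromosome 1 measured 496, 424 and 432 FPKM in Jonagold and 456, 436 and 462 FPKM in Granny Smith, a ratio of 1.17. MD04G1194100 on chromosome 4 measured 637, 590 and 590 FPKM in Jonagold and 624, 586 and 538 FPKM in Granny Smith, a ratio of 1.18. The last 2 genes are the more abundant ones of this group, and both had cultivars that overlapped in deposited FPKM. On equal FPKM totals, all Jonagold libraries were below all Granny Smith libraries in every gene of this group. Their ratio of Jonagold to Granny Smith was then 0.698 to 0.786.

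A second measure does not depend on how the libraries are scaled. For each pair of genes the log2 ratio of their values was taken in every library, and M of a gene is the mean, over the other 77 genes, of the standard deviation of these log2 ratios. A factor common to all genes of a library cancels in such ratios. M ran from 0.155 to 0.297, with a median of 0.211. It was lowest in MD12G1034000 with 0.155, MD07G1199300 with 0.156 and MD04G1194100 with 0.157, which also have a narrow spread in FPKM. Next came MD17G1040700 on chromosome 17 with an M of 0.161. It measured 223, 226 and 224 FPKM in Jonagold and 216, 239 and 197 FPKM in Granny Smith, so that nearly all of its spread lay within Granny Smith. The fifth was MD11G1183900 on chromosome 11 with an M of 0.164, at 544, 544 and 500 FPKM in Jonagold and 506, 556 and 442 FPKM in Granny Smith. In MD17G1040700 and MD11G1183900 the cultivars overlapped in deposited FPKM. On equal totals all Jonagold libraries were below all Granny Smith libraries in both, with ratios of 0.781 and 0.799.

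When each library was left out in turn, MD12G1034000, MD07G1199300 and MD04G1194100 were among the 5 lowest M in 6 of 6 cases. MD17G1040700 was among them in 4 and MD11G1183900 in 2. The 78 genes were not chosen anew in these cases, so the library left out had still taken part in their choice. M is measured against the chosen genes, however, and its order depended on that choice, with a Spearman's rho of 0.59 to M against all abundant genes. Against all 301 genes with at least 150 FPKM in every library, the lowest values were 0.420 in MD03G1065200, 0.424 in MD15G1142200 and 0.426 in MD11G1149200, MD12G1138800 and MD17G1268700. These 5 shared 0 genes with the 5 above, and in all of them the Jonagold mean was the higher one in deposited FPKM, by a ratio of 1.10 to 1.26, and the lower one on equal totals, at 0.832 to 0.954. Of the 10 lowest M among the 301 genes, 9 belonged to the 78, which the rule favours because it chose them for a narrow spread over the same libraries.

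**Figure D4:**
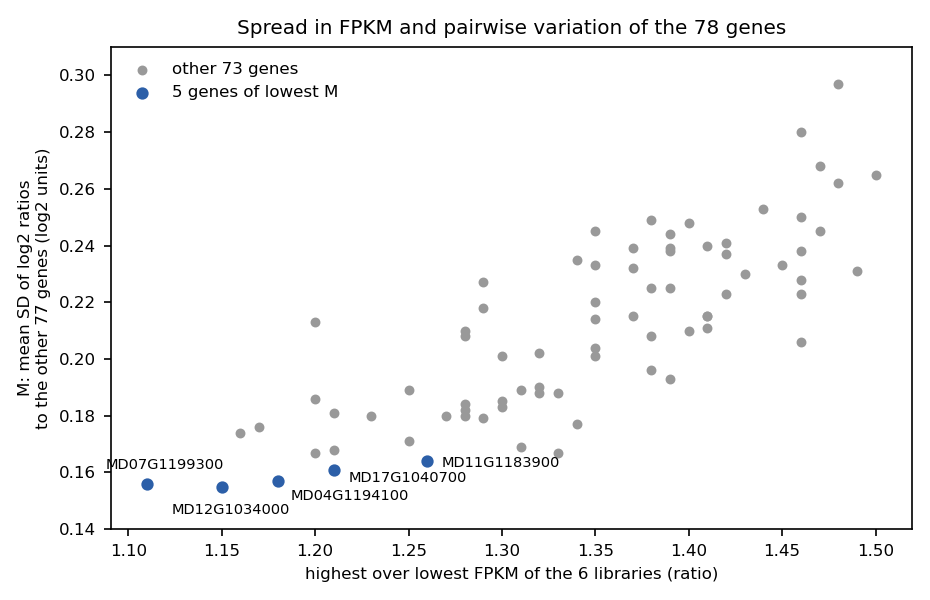
Pairwise variation M (log2 units) against the ratio of the highest to the lowest FPKM of the 6 libraries, 1 point per gene for the 78 genes, with the 5 genes of lowest M in blue. M ranges from 0.155 to 0.297, and the blue genes, at ratios of 1.11 to 1.26, lie at the lower left.

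The third group of candidates has the smallest worst case. For each gene the ratio of highest to lowest was computed on 4 scales, which were deposited FPKM, equal FPKM totals, the median of ratios and the upper quartile. The median of ratios, with factors of 0.999 to 1.00, left the deposited values almost unchanged and so adds little to them. The largest of the 4 ratios was lowest in MD12G1034000 and in MD08G1025900 on chromosome 8, at 1.33 in both. MD08G1025900 measured 166, 183 and 173 FPKM in Jonagold and 172, 171 and 153 FPKM in Granny Smith. Its ratio of Jonagold to Granny Smith was 1.05 in deposited FPKM and 0.795 on equal totals. On equal totals all of its Jonagold libraries were below all of its Granny Smith libraries. MD12G1138800 on chromosome 12 and MD09G1137700 on chromosome 9 had 1.34, and MD15G1250400 on chromosome 15 had 1.35. MD12G1138800 was the most abundant of these, at 626, 564 and 523 FPKM in Jonagold and 536, 551 and 469 FPKM in Granny Smith. MD09G1137700 measured 245, 223 and 227 FPKM in Jonagold and 188, 223 and 198 FPKM in Granny Smith. In both genes the cultivars overlapped in deposited FPKM. The ratio of Jonagold to Granny Smith was 1.10 in MD12G1138800 and 1.14 in MD09G1137700 on the deposited scale, but 0.832 and 0.860 on equal totals. There all Jonagold libraries were below all Granny Smith libraries in MD12G1138800, while the cultivars still overlapped in MD09G1137700. MD15G1250400 measured 197, 165 and 171 FPKM in Jonagold and 152, 165 and 154 FPKM in Granny Smith, where the cultivars met at 165 FPKM.

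Both criteria of the set were met on all 4 scales by 35 genes. These had a mean of 186 to 4231 FPKM, and their ratio of Jonagold to Granny Smith in deposited FPKM was 1.03 to 1.36, with a median of 1.13. Equal totals lower the Jonagold values relative to Granny Smith. Meeting the limit on both scales therefore favours genes that are higher in Jonagold in deposited FPKM, and nothing is read from that direction. MD08G1025900 and MD15G1250400 of the third group were not among the 35 genes. Their ratios stayed within the limit, but they fell below the minimum of 150 FPKM on another scale. MD12G1034000 was the one gene among the 5 lowest for each of the 3 measures, the spread in FPKM, M and the worst case. These measures are not independent, since all come from the values that chose the set, and rho between the spread in FPKM and M was 0.82. In M against all 301 abundant genes it ranked 13 among the 78. Its 3035 to 4900 recovered reads per library give a CV from counting of 1.59%, beside a measured CV of 5.03%.

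Pairs of genes can follow each other more closely than either follows the scale. Among the 3003 pairs of the 78 genes, the standard deviation of the log2 ratio had a median of 0.203. It was lowest, 0.0299, for MD01G1001600 and MD05G1182100, whose ratio to each other changed by a factor of 1.05 over the 6 libraries. It was highest, 0.475, for MD13G1167600 and MD15G1073300, the genes with the highest and the second lowest ratio of Jonagold to Granny Smith. Their ratio to each other changed by more than the factor of 1.5 to which each gene alone was held.

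Genes can also be combined. In deposited FPKM, the geometric mean of the 5 genes with the narrowest spread had a ratio of highest to lowest of 1.09 over the 6 libraries, that of the 5 genes of lowest M had 1.15, and that of the 5 genes with the smallest worst case had 1.20. MD07G1199300 alone had 1.11 and MD12G1034000 alone had 1.15, so only the combination of genes picked for a narrow spread on this scale was narrower than each of its genes. On equal totals the 3 combinations gave 1.40, 1.36 and 1.31. The mean of Jonagold over Granny Smith was then 0.757, 0.784 and 0.822, against 1.00, 1.04 and 1.09 in deposited FPKM.

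The limits of the set cut through a continuous range. Just inside the ratio of 1.5 were MD13G1234800 at 1.4971, MD01G1134600 at 1.4901 and MD15G1073300 at 1.4849. MD01G1134600 on chromosome 1 measured 302, 218 and 216 FPKM in Jonagold and 238, 203 and 206 FPKM in Granny Smith, and its highest value, in replicate 1 of Jonagold, stood apart from the others. Just outside it were MD11G1255300 at 1.5003, MD03G1237500 at 1.5060 and MD05G1221000 at 1.5063. Just inside the minimum were MD15G1250400, MD08G1025900 and MD04G1011000, with lowest values of 152.3, 153.1 and 154.0 FPKM. MD04G1011000 measured 198, 158 and 154 FPKM in Jonagold and 183, 203 and 208 FPKM in Granny Smith. Just outside the minimum, and within the ratio, were MD16G1206700, MD15G1008400 and MD06G1122100 with lowest values of 149.6, 146.7 and 143.9 FPKM.

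Gene length was not used by the rule, apart from its place in FPKM. The lengths implied by reads and FPKM are those of the authors' gene models. They ran from 222 to 3318 bases in the 78 genes, with a median of 1193 bases. The median was 1237 bases in the other 223 abundant genes and 1564 bases in genes that averaged 1 FPKM or more. The longest was MD09G1002900, which measured 196, 214 and 231 FPKM in Jonagold and 192, 178 and 196 FPKM in Granny Smith. MD04G1194100 followed at 2908 bases. The shortest was MD13G1234800, at 192, 237 and 215 FPKM in Jonagold and 264, 287 and 253 FPKM in Granny Smith. MD12G1260500 had 333 bases, and 296, 383 and 304 FPKM in Jonagold against 368, 405 and 356 FPKM in Granny Smith. The short genes rest on fewer reads, 586 to 1326 per library in MD13G1234800, whereas MD09G1002900 had 8961 to 13774.

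The 78 genes were spread over all 17 numbered chromosomes. There were 9 on chromosome 15, 8 each on chromosomes 3 and 16, and 1 each on chromosomes 8 and 14. On these chromosomes, per 1000 genes that averaged 1 FPKM or more, the count ran from 0.950 on chromosome 8 to 6.87 on chromosome 3. There was 1 pair with neighbouring identifiers, MD09G1137600 and MD09G1137700 on chromosome 9. MD09G1137600 measured 309, 318 and 327 FPKM in Jonagold and 347, 372 and 308 FPKM in Granny Smith. Its Jonagold mean was 0.929 times its Granny Smith mean, against 1.14 for MD09G1137700, and in both the cultivars overlapped. The files do not tell whether near-identical copies shared reads.

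The other 223 abundant genes show what the 78 were set apart from. Their ratio of highest to lowest had a median of 2.10 and reached 55.6, and the ratio of Jonagold to Granny Smith had a median of 1.36, and of 1.03 on equal FPKM totals. The wider spread of these genes follows from the choice of the 78. Of the 97 genes the paper names for aroma synthesis and its regulation, 1 reached 150 FPKM in all libraries in the deposited table, the lipoxygenase gene MdLOX-1 (MD07G1004500), whose enzyme starts the oxidation of fatty acids toward aldehydes and esters. It measured 1700 ± 113 FPKM in Jonagold and 245 ± 75.8 FPKM in Granny Smith (SD, n = 3), and its values spanned a factor of 10.8. The paper had chosen this gene as one that differed between the cultivars. The paper's own supplementary tables list these genes on another scale, which differs from the deposited FPKM by a factor that varies from gene to gene, and were not used here.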

How the data were processed

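RNA-seq libraries from the pulp of Jonagold and Granny Smith apples (3 per cultivar, grouped by their titles) were used. After filtering and mapping to GDDH13, the authors quantified genes with Cufflinks 2.2.1 and deposited FPKM, 1 column per library. The submitters' processing notes name Bowtie 0.12.2 and mouse genome builds instead, which do not match an apple study.

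FPKM is reads times a constant, divided by gene length and a library divisor. Whole reads (within 0.005 of a whole number), whole lengths (within 0.01 bases) and divisors were recovered from the deposited FPKM for 34259 genes. A factor common to all reads of a gene could remain where no whole length was found. It could also remain unseen where it divides the gene length, since the length found is then still whole. The recovery and M were tested on simulated data. Counting errors cover sampling of reads only, since no molecular identifiers are described.

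The genes were chosen with earlier results of these data known. They and all ratios were taken from deposited FPKM, with no pseudocount. No test was made, because the 6 values chose the genes. Background counts cover the 20993 genes that averaged 1 FPKM or more. Named genes were the 5 highest in mean, the 5 lowest each in ratio, worst ratio and M, the 3 nearest each limit inside and outside, the 3 highest and lowest in cultivar ratio, the 2 longest and shortest, and neighbours. MD05G1182100, MD03G1065200, MD15G1142200, MD11G1149200 and MD17G1268700 were named after their values were seen. Alternatives were other limits, scalings and libraries left out. Python 3.11.15, numpy 2.4.6, pandas 2.3.3 and matplotlib 3.10.9 were used. No reference genome or sequence was used, and the RefSeq table at hand, for another assembly, held 0 of the identifiers.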

Additional observations from a re-analysis of the deposited data

How the results depend on the processing

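The number of genes that met the rule was 78. It was 163 with a minimum of 100 FPKM, 49 with 200 FPKM, 4846 with no minimum beyond a value above 0, 25 with a largest ratio of 1.3 and 182 with a ratio of 2. With a mean of at least 150 FPKM, with 1 added to FPKM before the ratio, or under the other scalings it stayed between 78 and 108. The genes themselves changed more than their number. Of the 78, 36 were among the 98 genes on equal totals and 66 among the 87 on the upper quartile scale. Leaving out 1 library gave 88 to 110 genes, all 78 included, since fewer values have to meet the limits. The share of the total moved from 4.01% to 4.29% in Jonagold and from 5.08% to 5.16% in Granny Smith when reads were counted in place of FPKM. Without the 100 most abundant other genes it was 6.52% in Jonagold and 6.88% in Granny Smith. Leaving out 1 library gave 3.94% to 4.06% in Jonagold and 5.04% to 5.10% in Granny Smith. The median ratio of Jonagold to Granny Smith was 1.04, 0.785 on equal FPKM totals and 0.995 on the upper quartile scale. With 1 library left out it was 1.01 to 1.06. The cultivars did not overlap in 24 genes and in 52 on equal totals. Over the 20993 genes, Jonagold was higher without overlap in 30.4% and lower in 29.2% in deposited FPKM. On equal totals these shares were 17.5% and 49.7%. With 1 library left out the count among the 78 was 29 to 34. With a library left out, fewer values have to lie apart, and the share over all genes was not counted. Nothing is read from that rise. The 5 genes of lowest M shared 0 genes with the 5 lowest against all abundant genes, and 3 to 5 genes with those found when 1 library was left out. The 78 genes were kept fixed when a library was left out for M. Among the 26 genes named by rule, the cultivar ratio moved beyond the replicate spread in 26 on equal totals. It moved in 1 on the upper quartile scale and in 0 with 1 library left out. With the median of ratios it moved in 0, because factors of 0.999 to 1.00 leave the deposited values almost unchanged. The cause of these changes was not tested. No paired analysis was possible because the results come from no test, and nothing ties equal replicate numbers of the cultivars to each other. The precision rests on 3 libraries per cultivar.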
